A study of Arabidopsis thaliana with 16 samples.

Results

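The HSFA1 genes encode the class A1 heat shock transcription factors of Arabidopsis. All 4 members were taken by their gene identifiers, out of 27628 genes counted: HSFA1A (AT4G17750), HSFA1B (AT5G16820, also named HSF3), HSFA1D (AT1G32330) and HSFA1E (AT3G02990). The study asked how the FUST1 gene bears on translation in heat. Seedlings aged 10 days, of the wild type Col-0 or of fust1, stayed at 22 °C or were moved to 37 °C. RNA-seq and Ribo-seq were each done on 2 libraries for every pair of genotype and temperature, giving 16 libraries in 8 groups. Ribo-seq counts the stretches of RNA that ribosomes protect from RNase I, here called footprints. The labels give neither the kind of fust1 allele nor its locus, so the mutated gene was not checked here, and how long the heat lasted was also not given there.

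HSFA1 proteins are present in unstressed plants, where HSP70 and HSP90 chaperones hold them inactive. In heat they are released, form trimers and enter the nucleus, where they bind heat shock elements and switch on a further set of transcription factors, among them HSFA2, DREB2A and MBF1C. Plants that lack the whole group have lost most of the early heat response. Because the proteins are activated after translation, the amount of HSFA1 RNA is one layer of their control and their activity was not measured here.

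Levels are given as CPM, counts relative to library size, on the TMM scale, in which edgeR adjusts library sizes so that most genes do not shift. The RNA libraries held 9402134 to 12737375 counts and the footprint libraries 6175906 to 13968790, with the lowest totals in Col-0 at 37 °C. The choice of scale decided several directions below. With plain library totals, the median gene moved with heat by -1.03 on the log2 scale for RNA in Col-0 and -0.921 in fust1 relative to the TMM scale, and by -1.79 and -1.67 for footprints. On that scale 965 genes were called higher and 11190 lower for RNA in Col-0, against 3705 and 3511 with TMM. For footprints in Col-0 it was 693 and 14595, against 5135 and 5871. Nothing was added to the samples as a standard, so the files do not say which scale is closer to amounts per seedling. In whole seedlings, fewer cells of a type and less RNA per cell cannot be told apart. Summed root markers (6 genes) ran from 494 to 1620 CPM in the RNA libraries at 22 °C and from 201 to 516 at 37 °C, shoot markers (5 genes) from 27500 to 41200 and then from 35700 to 68000, and embryo and flower markers (3 genes each) were near 0. Single genes set these sums: PYK10 alone averaged 1004 CPM of RNA in Col-0 at 22 °C and 386.3 at 37 °C. The shoot markers did not move together in Col-0 RNA. RBCS1A went from 14110 to 12830 CPM and FAMA from 7.76 to 4.80, while LHCB1.3, RCA and GAPA were higher at 37 °C. In the footprint libraries root markers ran from 1050 to 1340 CPM at 22 °C and from 309 to 416 at 37 °C, and shoot markers from 8190 to 12100 and then from 4490 to 5520. The part of these marker differences in the HSFA1 values was not tested.

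In Col-0 RNA at 22 °C, HSFA1A and HSFA1E were low, at percentiles 20.7 and 21.2 of the 19340 genes tested. HSFA1D stood at 34.8 and HSFA1B at 51.8. The order was another at 37 °C in Col-0, with HSFA1D at 64.7, HSFA1E at 46, HSFA1B at 41.5 and HSFA1A at 21.1. HSFA1D and HSFA1E rose on the TMM scale while HSFA1B and HSFA1A did not rise. HSFA1D, a known activator of HSFA2, had 7.29 and 5.73 CPM in the Col-0 libraries at 22 °C (95 and 103 counts) and 21.7 and 19.2 CPM at 37 °C (180 and 124 counts). In fust1 it had 6.38 and 7.20 CPM at 22 °C and 19.3 and 18.1 CPM at 37 °C. Every heated library lay above every control library in both genotypes. HSFA1D RNA rose by 1.65 ± 0.25 on the log2 scale in Col-0 (log2 change ± SE, adjusted p = 0.000494) and by 1.46 ± 0.25 in fust1 (adjusted p = 0.00111). HSFA1E, which shares the HSFA2 role with HSFA1D, had 4.22 and 2.34 CPM in Col-0 at 22 °C and 7.59 and 9.89 CPM at 37 °C. In fust1 it had 3.80 and 2.93 CPM at 22 °C and 7.26 and 10.3 CPM at 37 °C. Again no heated library overlapped a control on the TMM scale, but with library totals those of Col-0 did. The share of all genes whose heated and control libraries separate was not computed. HSFA1E RNA rose by 1.42 ± 0.40 in Col-0 (adjusted p = 0.0177) and by 1.38 ± 0.40 in fust1 (adjusted p = 0.0199). With library totals neither gene was called in either genotype: HSFA1D kept a log2 change of 0.63 and 0.53, and HSFA1E of 0.39 and 0.46 (Col-0, then fust1).

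HSFA1B, whose overexpression is known to turn on heat shock proteins without heat, went the other way in RNA. It had 11.7 and 12.8 CPM in Col-0 at 22 °C (153 and 231 counts) and 7.22 and 6.80 CPM at 37 °C (60 and 44 counts). In fust1 it had 14.4 and 9.01 CPM at 22 °C and 5.97 and 3.96 CPM at 37 °C. All heated libraries were below all controls of their genotype. The log2 change was -0.81 ± 0.32 in Col-0, which missed the threshold (adjusted p = 0.0692), and in fust1 HSFA1B RNA fell by 1.24 ± 0.33 (adjusted p = 0.0135). With library totals it fell in both, by 1.84 (adjusted p = 0.000967) and 2.14 (adjusted p = 0.00048). HSFA1A, the first of these factors to be cloned, was the least certain, with 4 to 80 RNA counts per library. Its RNA stood at 1.92 and 4.45 CPM in Col-0 at 22 °C and at 1.32 and 2.63 CPM at 37 °C, which overlap. In fust1 it stood at 3.19 and 3.004 CPM at 22 °C and at 1.95 and 0.495 CPM at 37 °C, which do not. Neither change was called (-0.71 ± 0.69, adjusted p = 0.439, and -1.34 ± 0.72, adjusted p = 0.167), and with library totals the change in fust1 was called lower (-2.24 ± 0.75, adjusted p = 0.0264).

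For heat in Col-0 RNA, edgeR (quasi-likelihood test, p adjusted over all genes by Benjamini-Hochberg) called 2 members higher and 0 lower of 4, where 37.3 % of all genes tested were called (19.2 % higher, 18.2 % lower). In fust1 RNA it called 2 higher and 1 lower, where 36.7 % were called (18.8 % higher, 17.9 % lower). Several of these calls rest on single libraries. The HSFA1E call in Col-0 was lost without replicate 2 at 22 °C (1.03, adjusted p = 0.151) or replicate 2 at 37 °C (1.22, adjusted p = 0.0606). In fust1 it was lost without replicate 1 at 22 °C (1.58, adjusted p = 0.0526), replicate 2 at 22 °C (1.19, adjusted p = 0.116) or replicate 2 at 37 °C (1.11, adjusted p = 0.133). The HSFA1B fall in fust1 was lost without replicate 1 at 22 °C (-0.85, adjusted p = 0.140) or replicate 2 at 37 °C (-0.97, adjusted p = 0.107). HSFA1D was called in both genotypes whichever RNA library was left out.

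**Figure D1:**
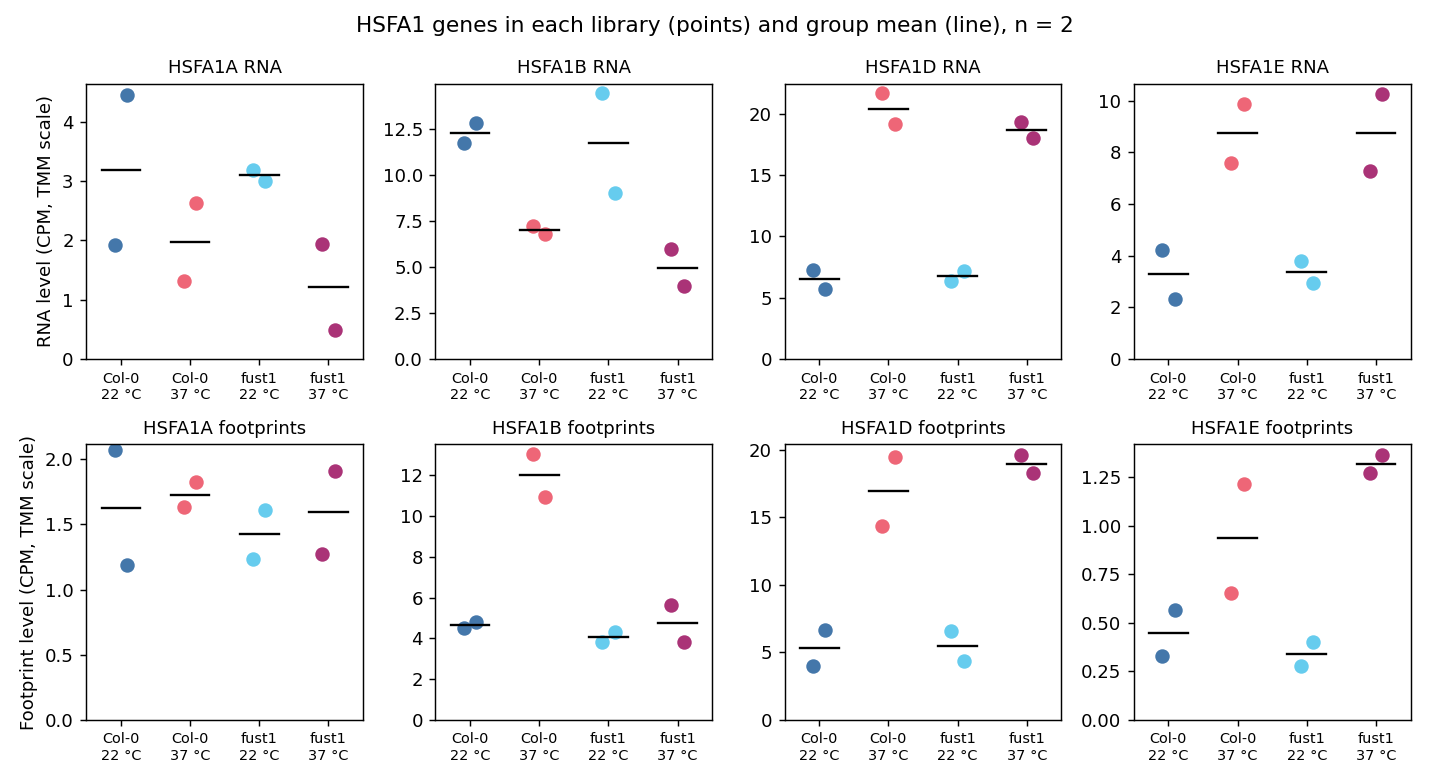
RNA (upper row) and footprint (lower row) levels of the HSFA1 genes, in CPM on the TMM scale, for each library (points, n = 2 per group) with the group mean (line); each panel has its own axis from 0. HSFA1D is higher at 37 °C in RNA and footprints of both genotypes, and the HSFA1B footprints of Col-0 at 37 °C (13.1 and 10.95 CPM) stand above all other HSFA1B footprint libraries.

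Footprints told the members apart further. HSFA1D had 3.98 and 6.62 CPM of footprints in Col-0 at 22 °C and 14.4 and 19.5 CPM at 37 °C. In fust1 it had 6.58 and 4.36 CPM at 22 °C and 19.6 and 18.3 CPM at 37 °C. Heated and control libraries did not overlap in either genotype on the TMM scale, but overlapped in both with library totals. HSFA1D footprints rose by 1.69 ± 0.29 in Col-0 (adjusted p = 1.17e-05) and by 1.79 ± 0.26 in fust1 (adjusted p = 8.40e-07). With library totals they showed no such rise, with a sign change in Col-0: the changes were -0.10 and 0.13, neither called.

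Among the members tested, HSFA1B was the one with a footprint call between the genotypes, at 37 °C. It had 4.52 and 4.81 CPM of footprints in Col-0 at 22 °C (109 and 93 counts) and 13.1 and 10.95 CPM at 37 °C (40 and 36 counts). In fust1 it had 3.83 and 4.29 CPM at 22 °C (96 and 117 counts) and 5.63 and 3.83 CPM at 37 °C (31 and 28 counts). On the TMM scale heated libraries thus lay wholly above the controls in Col-0 and overlapped them in fust1. With library totals they lay wholly below the controls in both genotypes. HSFA1B footprints rose by 1.36 ± 0.30 in Col-0 (adjusted p = 0.000318), and the change in fust1 was 0.20 ± 0.31 (adjusted p = 0.608). With library totals both signs turned: the Col-0 change was -0.43 ± 0.30 (adjusted p = 0.184), and in fust1 HSFA1B footprints fell by 1.48 ± 0.31 (adjusted p = 0.000127). The gap between the genotypes kept its sign on both scales.

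HSFA1A footprints were sparse, with 5 to 50 counts per library. Col-0 had 2.07 and 1.19 CPM at 22 °C against 1.63 and 1.83 CPM at 37 °C. The fust1 libraries had 1.24 and 1.61 CPM, then 1.27 and 1.91 CPM, so heated and control libraries overlapped in both. The changes of 0.07 ± 0.62 and 0.18 ± 0.52 were not called, and with library totals they were called lower (-1.71 ± 0.59, adjusted p = 0.0100, and -1.48 ± 0.52, adjusted p = 0.0105). HSFA1E had 2 to 11 footprint counts per library and did not pass the filter on low counts. Col-0 had 0.331 and 0.569 CPM of HSFA1E footprints at 22 °C against 0.653 and 1.22 CPM at 37 °C. The fust1 libraries had 0.279 and 0.403 CPM, then 1.27 and 1.37 CPM. The ratio of its heated to control footprint counts, 6 over 19 in Col-0, was 2.16 after TMM scaling with an exact 95 % interval of 0.707 to 5.63, and with library totals it turned to 0.623 (0.204 to 1.62). In fust1, 17 over 18 counts gave 3.86 (1.87 to 7.93), and with library totals 1.21 (0.586 to 2.49). These intervals cover counting error only and leave out the spread between the 2 libraries of a group, whose counts were summed. Reads carried no molecular identifiers, so copies of 1 molecule could be counted as separate. Of the 3 members tested, 2 were called higher for heat in Col-0 footprints, where 59.7 % of genes were called (27.8 % higher), and 1 in fust1, where 58.8 % were called (27.6 % higher).

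**Figure D2:**
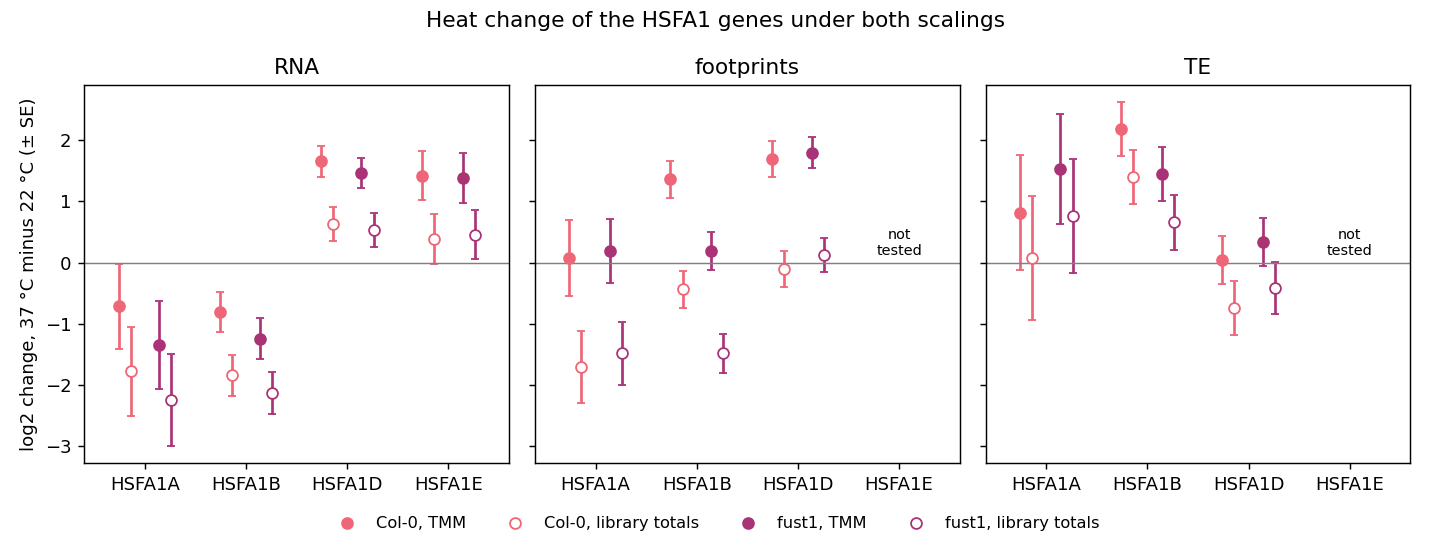
Heat change (37 °C minus 22 °C, log2 ± SE) of the HSFA1 genes in RNA, footprints and footprints relative to RNA (TE), for Col-0 and fust1, with TMM scaling (filled) and library totals (open). Library totals place every change lower, so that the HSFA1B footprint change in Col-0 goes from 1.36 to -0.43; the TE change of HSFA1B in Col-0 is 2.18 and 1.41.

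The comparison of fust1 with Col-0 asks whether the mutant alters these genes at a given temperature. At 37 °C, HSFA1B had fewer footprints in fust1 than in Col-0, with a mean of 4.73 ± 1.28 CPM against 12.01 ± 1.49 CPM (SD, n = 2). The log2 difference was -1.36 ± 0.34 (adjusted p = 0.00898), and both fust1 libraries lay below both Col-0 libraries. With library totals the means were 2.76 ± 0.580 and 6.10 ± 0.389 CPM, and the difference was -1.16 ± 0.34 (adjusted p = 0.0283). It was the single call among the 3 members tested for footprints at 37 °C, where 10.7 % of genes were called (4.62 % lower). It was lost without Col-0 replicate 1 (-1.16, adjusted p = 0.0999) or fust1 replicate 2 (-1.02, adjusted p = 0.117), and it rests on 76 counts against 59 from libraries of unlike depth. HSFA1B RNA at 37 °C differed by -0.50 ± 0.35 (adjusted p = 0.532). On the TMM scale fust1 libraries also lay wholly below Col-0 for HSFA1B RNA at 37 °C (ratio of means 0.71) and footprints at 22 °C (0.87). For HSFA1E footprints at 37 °C they lay wholly above (1.41). The share of all genes that separate in this way was not computed. The heat change of HSFA1B footprints was smaller in fust1 by 1.17 ± 0.43, which was not called (adjusted p = 0.0875, range 0.0514 to 0.275 when each library was left out). In that test of heat by genotype edgeR called 0 of 3 members, 1 had an unadjusted p under 0.05, and 8.70 % of all genes were called. DESeq2 called 0 of 2, as it gave HSFA1A no adjusted p. The annotated end of HSFA1B overlaps that of SYP21, and how the counting used strand is not stated in the sources used here, so reads from the overlap cannot be told apart.

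No other genotype difference of a member was called. HSFA1D differed at 37 °C by -0.13 ± 0.24 in RNA and 0.16 ± 0.28 in footprints, HSFA1E by 0.01 ± 0.39 in RNA, and HSFA1A by -0.68 ± 0.76 in RNA and -0.09 ± 0.68 in footprints. The HSFA1A footprint and HSFA1D RNA signs turned with library totals, and the HSFA1E sign with RLE scaling. At 22 °C the log2 differences of the members ran from -0.07 to 0.07 in RNA and from -0.21 to 0.06 in footprints. In RNA, edgeR called 0 of 4 members at 22 °C, at 37 °C and for heat by genotype, with 0 members at an unadjusted p under 0.05, where it called 0.0569 %, 0.0517 % and 0.031 % of all genes. DESeq2 called 0 of 4 at 22 °C and 0 of the 3 other than HSFA1A, which had no adjusted p, in the other two. For footprints at 22 °C edgeR called 0 of 3, with 0 at an unadjusted p under 0.05, where it called 4.38 % of genes. There DESeq2 gave an adjusted p for HSFA1D alone and did not call it. These misses do not show that the genotypes were alike: the SE of HSFA1A RNA at 37 °C alone allows a large difference either way.

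Footprints relative to RNA, called translational efficiency (TE), show how many footprints a gene had for its RNA. HSFA1B changed most clearly here. Its log2 ratio of footprints over RNA was -1.41 ± 0.29 in Col-0 at 22 °C and 0.78 ± 0.33 at 37 °C, while the median of 17816 genes was -0.676 and -0.738. In fust1 it was -1.53 ± 0.29 at 22 °C and -0.09 ± 0.34 at 37 °C. HSFA1B TE rose with heat by 2.18 ± 0.44 in Col-0 (adjusted p = 0.000835), the single call of 3 members, where 37.2 % of genes were called (15.8 % higher). It was called whichever of the 16 libraries was left out, at 1.98 to 2.25, and with library totals (1.41 ± 0.44, adjusted p = 0.0173). In fust1 it rose by 1.45 ± 0.45 (adjusted p = 0.0222), again the single call of 3, where 28.3 % were called (12.6 % higher). That call was lost with library totals (0.66 ± 0.45, adjusted p = 0.276). It was also lost without fust1 RNA replicate 1 at 22 °C (1.07, adjusted p = 0.115) or replicate 2 at 37 °C (1.18, adjusted p = 0.0906), and without fust1 footprint replicate 1 at 22 °C (1.37, adjusted p = 0.0758) or at 37 °C (1.13, adjusted p = 0.128).

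The TE of the other members was not called. HSFA1D held log2 ratios of -0.31 and -0.26 in Col-0 and -0.32 and 0.02 in fust1 (22 °C, then 37 °C), and its heat changes of 0.04 ± 0.40 and 0.34 ± 0.39 turned sign with library totals (-0.74 and -0.41). HSFA1A changed by 0.82 ± 0.94 in Col-0 and 1.53 ± 0.90 in fust1 (adjusted p = 0.520 and 0.219). The TE of HSFA1B was lower in fust1 than in Col-0 at 37 °C by -0.86 ± 0.47, which was not called (adjusted p = 0.382), and the difference of its heat changes was -0.74 ± 0.62 (adjusted p = 0.578). For TE at 22 °C, at 37 °C and for heat by genotype, edgeR called 0 of 3 members, with 0 at an unadjusted p under 0.05, where it called 0.00561 %, 1.27 % and 1.07 % of genes. DESeq2 called none of the members it gave an adjusted p, HSFA1D at 22 °C and HSFA1B and HSFA1D in the other two.

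**Figure D3:**
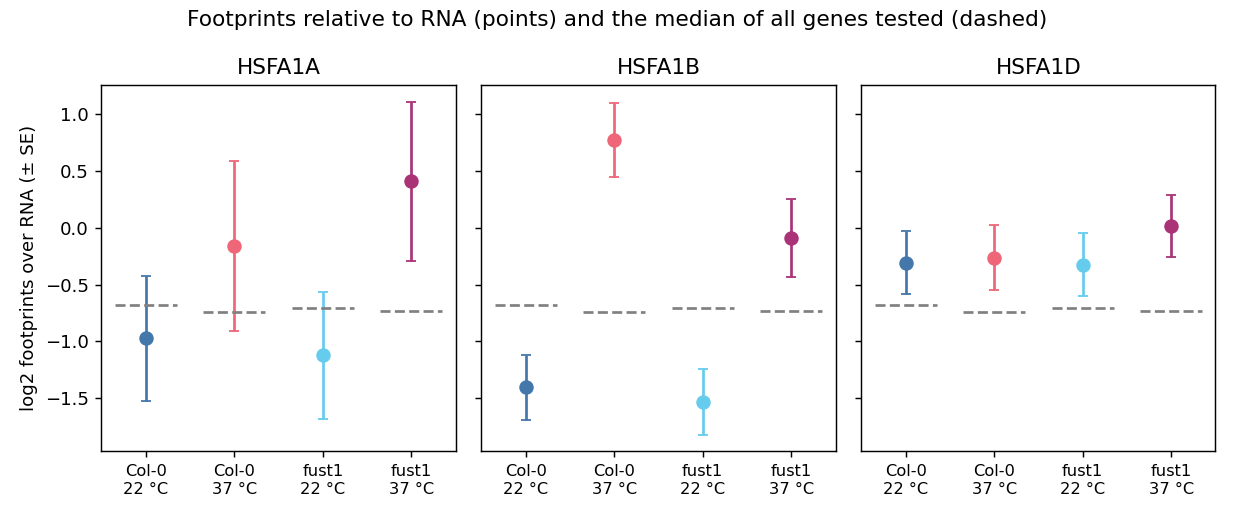
Log2 of footprints over RNA (± SE from the fit over 16 libraries, TMM within each assay) for the 3 HSFA1 genes that passed the filter in both assays, by group, with the median of all 17816 genes as a dashed line. In Col-0 HSFA1B goes from -1.41 to 0.78, and in fust1 from -1.53 to -0.09, while HSFA1D stays between -0.32 and 0.02.

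The share that each gene held of all HSFA1 reads in a library needs no scaling between libraries. Shares are of reads, not of molecules, since the coding lengths were not used here, so they are compared between groups and not between genes. In RNA, the HSFA1B share went from 48.7 ± 2.83 % in Col-0 at 22 °C to 18.4 ± 1.02 % at 37 °C, and from 46.3 ± 7.93 % to 14.7 ± 3.68 % in fust1 (mean ± SD, n = 2). HSFA1D took 25.8 ± 4.50 % and then 53.6 ± 5.32 % in Col-0, and 27.7 ± 6.75 % and then 55.6 ± 0.658 % in fust1. HSFA1E went from 13.0 ± 5.35 % to 22.9 ± 3.99 % and from 13.5 ± 0.290 % to 26.2 ± 7.26 %. HSFA1A went from 12.6 ± 7.01 % to 5.17 ± 2.35 % and from 12.5 ± 1.47 % to 3.57 ± 2.92 %. In both genotypes the HSFA1B shares at 37 °C lay below, and the HSFA1D shares above, those of every library at 22 °C.

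In footprints the HSFA1B shares of the genotypes did not overlap at 37 °C. HSFA1B held 39.0 ± 3.51 % in Col-0 at 22 °C and 38.3 ± 7.94 % at 37 °C, but 36.2 ± 5.73 % and then 17.7 ± 3.68 % in fust1. HSFA1D held 43.4 ± 9.69 % and then 53.3 ± 6.95 % in Col-0, and 48.0 ± 10.1 % and then 71.3 ± 1.02 % in fust1. The HSFA1A share was 14.0 ± 7.06 % and then 5.47 ± 0.0283 % in Col-0, and 12.7 ± 3.36 % and then 6.05 ± 2.09 % in fust1, and HSFA1E held 2.92 to 4.98 % in every group mean. Summed over the 4 genes, RNA went from 25.3 ± 0.134 to 38.1 ± 0.460 CPM in Col-0 and from 25.0 ± 3.995 to 33.6 ± 1.22 CPM in fust1. Summed footprints went from 12.04 ± 1.61 to 31.6 ± 2.66 CPM and from 11.3 ± 0.898 to 26.6 ± 1.68 CPM. The sums are on the TMM scale, and neither sums nor shares were tested.

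**Figure D4:**
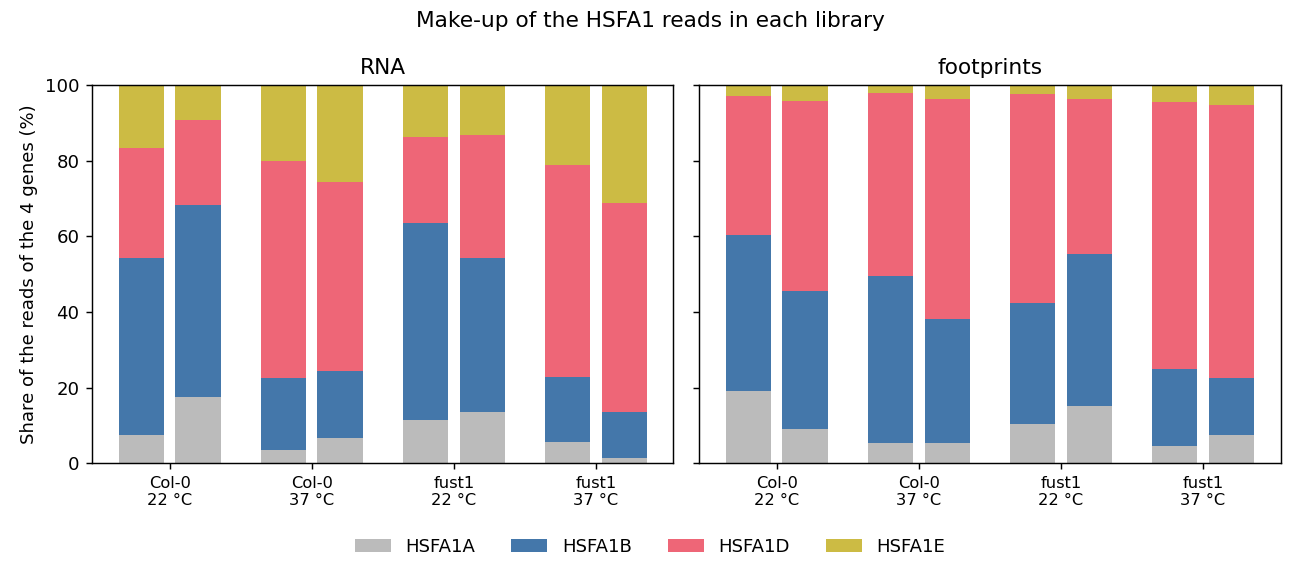
Share (%) of each HSFA1 gene in the reads of all 4, per library (2 bars per group), for RNA and footprints. In RNA the HSFA1B part is smaller at 37 °C in both genotypes (18.4 and 14.7 % on average); in footprints it is 38.3 % in Col-0 and 17.7 % in fust1 at 37 °C.

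Across the 16 libraries, with log2 CPM centred within each assay, HSFA1D and HSFA1E followed each other most closely (Pearson r = 0.915) and HSFA1A ran with HSFA1B at r = 0.554. The other pairs ran from -0.476 to -0.0846. These pair values were computed on the TMM scale only. Those of HSFA1E include its footprint libraries, with 2 to 11 counts each, which did not pass the filter. The libraries share a heat contrast, so many genes reach a high r, and these values are descriptions. The genes most like HSFA1D were AT4G15680 (r = 0.984), AT1G27350 (0.979) and TIN1 (0.978), a gene induced by tunicamycin. For HSFA1E they were TMAC2 (0.965), BRIZ2 (0.957) and AT2G42150 (0.957). For HSFA1B they were NRB4, a subunit of the Mediator complex (0.953), NUDT8 (0.945) and AT1G14580 (0.937), and for HSFA1A they were AT4G19950 (0.880), GDPD5 (0.872) and AT4G15450 (0.868). The median r over all genes lay between -0.210 and 0.0154. With library totals, NRB4 and TMAC2 stayed among the 3 closest to HSFA1B and HSFA1E (r = 0.976 and 0.797), and the other 10 left the first 3 of their member, with r of 0.545 to 0.661 for the HSFA1D set.

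The members' small changes stood beside far larger ones in the genes they are known to act on. The list of first targets holds factors known to need HSFA1 for heat induction and was made with earlier results known. Their rise is therefore a description and not a test. All 8 listed first targets rose with heat in RNA and footprints of both genotypes, on both scales: HSFA2, HSFA7A, HSFA7B, HSFB1, HSFB2A, HSFB2B, DREB2A and MBF1C. Their median log2 change was 7.73 in Col-0 RNA and 7.27 in fust1 RNA, and 8.83 and 8.60 in footprints, beside medians over all genes of -0.100, -0.122, -0.214 and -0.130. With TMM, 19.2 % and 18.8 % of all genes were called higher in RNA, and 27.8 % and 27.6 % in footprints (Col-0, then fust1). HSFA2, which prolongs the heat response, went from 0.713 ± 0.249 to 10260 ± 623 CPM of RNA in Col-0 and from 5.45 ± 0.888 to 8666 ± 363 CPM in fust1. MBF1C, a coactivator needed for heat tolerance, had 3.83 ± 0.434 CPM of footprints in Col-0 at 22 °C and 8142 ± 216 CPM at 37 °C, and in fust1 4.99 ± 0.678 and 6135 ± 609 CPM. DREB2A, a drought and heat factor, had footprint changes of 9.41 ± 0.23 and 8.81 ± 0.23 (adjusted p = 4.33e-23 and 1.00e-22), and its TE rose by 2.13 ± 0.36 (adjusted p = 0.00021) and 2.73 ± 0.36 (adjusted p = 3.17e-05). HSFA7B had 2 RNA counts over both Col-0 libraries at 22 °C and 15558 at 37 °C, so its fitted fold is loosely set. It passed the RNA filter through its heated libraries and is part of the count and medians above.

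Among 17 other heat shock factors, of which 6 are also first targets, 13 passed the filter for RNA and 14 for footprints. Those 6 are among the rises and medians of both assays given here, so the counts of rises largely repeat those of the first targets. In RNA, 7 rose and 2 fell in Col-0 and 7 rose and 1 fell in fust1, with medians of 5.16 and 4.31. Over all 19340 genes tested for RNA, 3705 rose and 3511 fell in Col-0, and 3635 rose and 3471 fell in fust1. In footprints 8 rose and 0 fell in Col-0, and 9 rose and 1 fell in fust1, with medians of 3.61 and 4.01. Over all 18445 genes tested for footprints, 5135 rose and 5871 fell in Col-0, and 5082 rose and 5761 fell in fust1. The few of these factors that fell, named after their values were seen, were HSFA5 (-1.12 ± 0.39, adjusted p = 0.0431) and HSFB4 (-1.41 ± 0.50, adjusted p = 0.0449) in Col-0 RNA, HSFA8 (-2.57 ± 0.53, adjusted p = 0.00338) in fust1 RNA and HSFC1 (-1.52 ± 0.51, adjusted p = 0.0117) in fust1 footprints. HSFA3, which DREB2A is known to activate, rose by 5.33 ± 0.27 in Col-0 RNA and 7.85 ± 0.25 in footprints. With library totals 7 rose and 6 fell in Col-0 footprints, where 693 of all 18445 genes were called higher and 14595 lower. The count of falls among these factors thus depends on the scale.

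The 11 partners and regulators are the cytosolic HSP70 and HSP90 genes that hold HSFA1 inactive, the binding protein HSBP that ends the response, and BIN2, a brassinosteroid kinase known to phosphorylate HSFA1D. In RNA 9 rose and 0 fell in Col-0, and 10 rose and 1 fell in fust1, with medians of 5.33 and 4.21. In footprints 9 rose and 1 fell in both genotypes, with medians of 5.77 and 4.98. The calls over all genes are those given beside the other heat shock factors. Some HSP70 and HSP90 genes are close copies whose reads could be assigned to one another. HSP70-1 rose in RNA by 3.28 ± 0.27 in Col-0 and 2.99 ± 0.27 in fust1 (adjusted p = 4.95e-06 and 1.01e-05), while its footprints changed by 0.15 ± 0.15 and 0.18 ± 0.15 (adjusted p = 0.408 and 0.314) with TMM and were called lower with library totals (-1.64 and -1.49). Its TE fell by 3.12 ± 0.30 and 2.80 ± 0.29 (adjusted p = 4.92e-07 and 3.50e-06). BIN2 was the one that fell: its footprints by 1.58 ± 0.19 in Col-0 and 0.87 ± 0.16 in fust1, and its RNA by 0.62 ± 0.19 in fust1. HSBP footprints rose by 1.87 ± 0.14 and 1.19 ± 0.14 with TMM, but with library totals they changed by 0.07 and -0.48, the latter called lower.

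**Figure D5:**
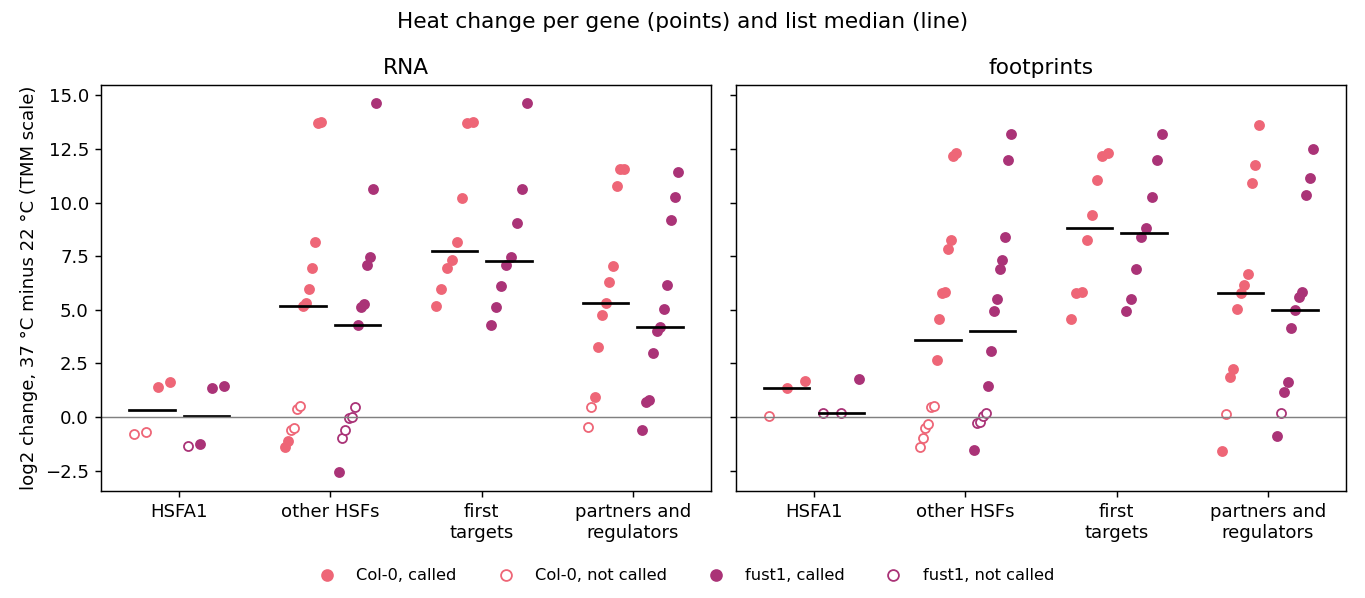
Heat change (log2, TMM scale) of each tested gene among the HSFA1 genes, other heat shock factors, first targets and partners, for RNA and footprints in Col-0 and fust1; filled points passed adjusted p at or below 0.05 and lines are list medians. The HSFA1 genes lie between -1.34 and 1.79, and the first targets have medians of 7.27 to 8.83.

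Between the genotypes calls among these genes were 1 in RNA and more in footprints. In RNA at 22 °C HSFA2 was higher in fust1 by 2.87 ± 0.37 (adjusted p = 0.0232), the 1 call among the 3 lists there, where 0.0569 % of all genes were called. It was lost when either Col-0 library at 22 °C, fust1 replicate 1 at 22 °C or either fust1 library at 37 °C was left out. In footprints at 37 °C, where 10.7 % of all genes were called, HSFB2B was higher in fust1 by 0.86 ± 0.22 (adjusted p = 0.00969) and BIN2 by 0.68 ± 0.20 (adjusted p = 0.0308). DREB2A was lower by -0.65 ± 0.16 (adjusted p = 0.00741) and HSP70-2 by -0.60 ± 0.13 (adjusted p = 0.00437). All 4 footprint calls were lost without Col-0 replicate 1 at 37 °C, a library without which the HSFA1B difference was not called either. With library totals DREB2A (-0.45 ± 0.15, adjusted p = 0.0503) and HSP70-2 (-0.40 ± 0.14, adjusted p = 0.0668) just missed the threshold, and HSP70-1 was called higher in fust1 (0.58 ± 0.16, adjusted p = 0.0183). In footprints at 22 °C 0 genes of the lists were called with TMM, and with library totals HSP70-3, HSP90.2 and HSP90.3 were higher in fust1 (0.58, 0.60 and 0.48). The TE of HSFB2B at 37 °C was higher in fust1 by 1.24 ± 0.27 (adjusted p = 0.0349), the 1 TE call of the lists between genotypes, where 1.27 % of genes were called. Leaving out a library ended the calls among the first targets there for 11 of the 16.

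In the footprint test of heat by genotype, 3.21 % of all genes were called lower. On the TMM scale, the heat rise itself was smaller in fust1 footprints for 4 of the 11 partners and 1 of the 8 first targets. These were the chaperones HSP70-2 (-0.92 ± 0.20, adjusted p = 0.00381), HSP70-3 (-0.82 ± 0.23, adjusted p = 0.0220) and HSP90.3 (-0.79 ± 0.22, adjusted p = 0.0199), with HSBP (-0.68 ± 0.20, adjusted p = 0.0296) and MBF1C (-0.79 ± 0.25, adjusted p = 0.0447). HSP90.3 footprints went from 253.7 ± 19.2 to 13830 ± 1710 CPM in Col-0, while fust1 had 334.3 ± 9.33 and then 10530 ± 582 CPM. With library totals the 3 chaperones were still called, and HSBP (-0.56, adjusted p = 0.118) and MBF1C (-0.67, adjusted p = 0.0664) were not. With RLE scaling 4 partners were called lower, but 0 first targets were called lower and 1 was called higher. The 4 partner calls became 1 without Col-0 replicate 1 at 22 °C or at 37 °C and 2 without fust1 replicate 2 at 37 °C. No first target was called without any one of these 3 libraries or fust1 replicate 1 at 22 °C. In RNA the same test called 0 genes of both lists, where it called 0.031 % of all genes. The TMM medians in RNA were -0.744 for partners and -0.849 for first targets, beside -0.602 and -0.0731 in footprints. In TE they were 0.314 and 0.717, with 0 called. The smaller footprint rise is thus not set apart from the RNA of these genes.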

How the data were processed

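Per the labels, RNA-seq used oligo-dT selected RNA, and Ribo-seq used RNase I footprints after sizing columns and depletion of ribosomal RNA. The authors deposited whole-number read counts per gene, not normalized. Named in the submitters' processing notes are the aligners STAR 2.7.3a and Bowtie 1.0.1, the counter featureCounts 1.6.2, the read trimmer fastp 0.19.7 and the TAIR10 genome, without how each was used. Which feature was counted, and with which strand setting, is not given in the sources used here. Where they hold introns or untranslated parts, footprints over RNA shifts by gene, but less so its change.

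Genes passing filterByExpr (minimum count 10) numbered 19340 for RNA and 18445 for footprints. These held all 4 members for RNA and 3 for footprints, and 17816 genes passed both. edgeR 4.0.16 in R 4.3.3 was used (TMM, robust quasi-likelihood test). All 4 groups of an assay shared the spread (4 residual degrees of freedom). TE was tested as an assay by comparison interaction in a fit of 16 libraries (8 degrees of freedom). Each SE is the size of the log2 change divided by the root of its F value. A call is a Benjamini-Hochberg adjusted p at or below 0.05 over all genes tested, in 15 comparisons. The procedure was run on simulated counts with equal numbers of rises and falls, so that run does not bear on the choice of scale. The design text calls the replicates biological without saying whether they were separate cultures. The p-values set a difference against the shared spread between these replicates.

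The members, the 3 further gene lists and the markers were chosen with earlier results of these data known. Named genes were the members, HSFA2, DREB2A, MBF1C, up to 4 genes of a list with the smallest adjusted p in a comparison, and the 3 genes with the highest Pearson r (prior count 2) to each member. Other values of HSFA3, HSP70-1, HSP90.2, HSBP and BIN2, and the heat shock factors that fell, were added after they were seen. Levels per coding length had been intended but are not given, as no gene models of the files' build were used here. Alternatives were RLE scaling, library totals, DESeq2 1.42.0, no filter, only the groups compared, a replicate term and leaving out each library in turn.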

Additional observations from a re-analysis of the deposited data

How the results depend on the processing

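Scaling was the choice that moved the HSFA1 values most. With library totals, called members went from 2 to 1 for heat in Col-0 RNA (HSFA1B lower), from 2 to 1 for heat in Col-0 footprints (HSFA1A lower), from 1 to 2 for heat in fust1 footprints (HSFA1A and HSFA1B lower) and from 1 to 0 for heat in fust1 TE. In fust1 RNA, 0 were called higher and 2 lower. On that scale most genes tested were called lower with heat, so such falls are not particular to the members. For RNA it was 11190 of 19340 genes in Col-0 and 9936 in fust1, and for footprints 14595 of 18445 and 15126. Without the filter, HSFA1E footprints in fust1 were also called for heat (1.88 ± 0.81, adjusted p = 0.0427), giving 2.

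Signs that turned with library totals were those of HSFA1A, HSFA1B and HSFA1D footprints for heat in Col-0 (-1.71, -0.43 and -0.10), HSFA1A and HSFA1B footprints for heat in fust1 (-1.48 and -1.48), HSFA1A footprints and HSFA1D RNA by genotype at 37 °C (0.117 and 0.0426), HSFA1E RNA for heat by genotype (0.0709) and HSFA1D TE for heat in Col-0 and fust1 (-0.74 and -0.41). HSFA1E RNA by genotype at 37 °C turned with RLE scaling (-0.0028), DESeq2 (-0.0033) and only the groups compared (-0.0048). HSFA1D TE for heat in Col-0 turned with RLE scaling (-0.0099), DESeq2 (-0.0097), no filter (-0.0098) and only the groups compared (-0.0163), and by genotype at 22 °C with only the groups compared (0.0022). Apart from scaling by totals, these were values near 0. The cause was not tested.

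The replicate number was added as a term in a replicate block. It pairs nothing per the labels, and deviations of same-numbered libraries correlated at -0.26 to 0.205. All 50 member values kept their sign and their side of the threshold under it (HSFA1B footprints by genotype at 37 °C, -1.36, adjusted p = 0.0125). The HSFA2 call in RNA at 22 °C was lost under it.

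Leaving out each library in turn gave 1 to 2 called members for heat in Col-0 RNA, 1 to 3 for heat in fust1 RNA, 0 to 1 for genotype at 37 °C in footprints and 0 to 1 for heat in fust1 TE. Of 520 such member values 13 lost a call and 55 turned sign, none of the latter called. For RNA the ranges with a turned sign were -1.27 to 0.0147 (HSFA1A, heat in Col-0), -0.50 to 0.67, -0.46 to 0.25, -0.12 to 0.26 and -0.34 to 0.55 (HSFA1A, HSFA1B, HSFA1D and HSFA1E, genotype at 22 °C), -0.26 to 0.24 (HSFA1E, genotype at 37 °C), and -1.90 to 0.0502 and -0.55 to 0.34 (HSFA1A and HSFA1E, heat by genotype). For footprints they were -0.26 to 0.54 (HSFA1A, heat in Col-0), -0.19 to 0.39 and -0.12 to 0.44 (HSFA1A and HSFA1B, heat in fust1), -0.54 to 0.26 and -0.28 to 0.46 (HSFA1A and HSFA1D, genotype at 22 °C), -0.37 to 0.21 (HSFA1A, genotype at 37 °C), and -0.36 to 0.44 and -0.30 to 0.44 (HSFA1A and HSFA1D, heat by genotype). For TE they were -0.29 to 0.44 (HSFA1D, heat in Col-0), -0.88 to 0.31, -0.44 to 0.25 and -0.34 to 0.39 (HSFA1A, HSFA1B and HSFA1D, genotype at 22 °C), -0.11 to 1.84 (HSFA1A, genotype at 37 °C) and -0.10 to 0.63 (HSFA1D, heat by genotype).

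Counts over all genes moved by over 1.5 times in places. RNA calls by genotype at 22 °C were 11, against 88 with DESeq2, 57 without the filter, 20 with library totals, 4 with the replicate term and 102 with only the groups compared. At 37 °C they were 10, against 328, 195, 1, 1 and 1, and for heat by genotype 6, against 187, 122, 1 and 0. RNA heat calls were 7216 in Col-0 and 7106 in fust1, against 12155 and 10831 with library totals. Footprint calls by genotype at 22 °C were 808, against 1926 with only the groups compared. TE calls by genotype at 22 °C were 1, against 18 with DESeq2 and 12 with only the groups compared. At 37 °C they were 227, against 502 with DESeq2, 87 with the replicate term and 3 with only the groups compared, and for heat by genotype 191, against 707 with DESeq2 and 44 with the replicate term. DESeq2 gave no adjusted p for 10 of the member values, all of HSFA1A or HSFA1B in genotype or heat by genotype comparisons. Depth limits HSFA1A and HSFA1E most.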
